A study of Mus musculus with 2 samples.

Results

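MicroRNAs known from striated muscle were measured in the developing kidney of the mouse at embryonic day 16.5. The set holds 10 microRNA genes, chosen by name: Mir1a-1, Mir1a-2, Mir1b, Mir133a-1, Mir133a-2, Mir133b and Mir206, and the myosin-hosted Mir208a, Mir208b and Mir499. Of these, 9 have a row among the 1973 gene rows of the tables, 6 of the miR-1, miR-133 and miR-206 genes and all 3 myosin-hosted genes. Mir1a-2 has no row under its GENCODE identifier and was not analysed here. The kidneys came from healthy B6NCrl embryos of pooled sex and made up 1 group of 2 libraries, biological replicates 1 and 2. Replicate 2 was pooled from 41 embryos, while no pool size is stated for replicate 1. Both libraries carry the same donor record per the labels, so the spread between them may be partly technical. No treatment, genotype or age was contrasted. Reads on the strand of the gene numbered 5317669 in replicate 1 and 7128703 in replicate 2, and levels are counts per 1000000 of these (CPM).

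MicroRNAs of about the same length are cut from hairpin precursors and repress messenger RNAs that match their seed, bases 2 to 8. In striated muscle, miR-1, miR-133 and miR-206 are made from paired genes that are transcribed together and are induced by muscle regulators such as MyoD and SRF. Heart and skeletal muscle make miR-1 and miR-133a, while miR-206 and miR-133b are known from skeletal muscle. The myosin-hosted microRNAs are cut from introns of myosin heavy chain genes. Mir208a comes from Myh6 of heart muscle, Mir208b from Myh7 of heart and slow skeletal muscle, and Mir499 from Myh7b.

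Mature sequences decide which genes the tables can tell apart, so those of the genes with reads are shown first, from RefSeq on GRCm38.p6, with the seed in capitals. Of the 10 genes, 6 have a mature entry in that table. Mir1b had reads but has no entry there, so it is not shown. The miR-206 and miR-133b guide strands come from a pair of genes on chromosome 1, and the miR-208 and miR-499 strands come from the myosin introns.
miR-206-3p: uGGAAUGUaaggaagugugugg
miR-133b-3p: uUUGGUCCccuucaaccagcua
miR-208b-3p: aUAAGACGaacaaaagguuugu
miR-208a-3p: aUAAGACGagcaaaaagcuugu
miR-499-5p: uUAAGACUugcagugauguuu
The 2 miR-208 strands share the seed UAAGACG and 19 of 22 bases. Counted from the 5′ end, they differ at G10A, A16G and C18U, with the miR-208a base first, so a read of full length can be assigned to 1 of the genes. The miR-499-5p seed is UAAGACU, which differs from the miR-208 seed in 1 base, the substitution G8U. The seed GGAAUGU of miR-206-3p is the one known also from miR-1. It stood in 3 of 1738 mature entries of the table, and the other 2 belong to Mir6349 and Mir6382, which had 0 reads in both libraries. The table has no entry for the 3′ strand of miR-1a, so this count leaves miR-1 out.

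The passenger strands of the precursors tell Mir206 from Mir1a-1, and are shown for that reason.
miR-206-5p: aCAUGCUUcuuuauauccucaua
miR-1a-1-5p: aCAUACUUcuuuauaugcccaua
They shared 20 of 23 bases and differed at G5A, C17G and U19C, with the miR-206 base first, and the first of these changes lies in the seed. A gene row counts reads from the whole precursor and does not separate the arms. That of Mir206 runs for 73 nt on the plus strand, with both arms in capitals.
Mir206 precursor: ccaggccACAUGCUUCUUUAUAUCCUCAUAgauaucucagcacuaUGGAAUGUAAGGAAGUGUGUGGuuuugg
Mir206 and Mir1b were the genes of the miR-1, miR-133 and miR-206 group with no stretch of 18 nt in common with the same strand of another microRNA gene.

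Mir206 had the highest level of the 9 striated muscle microRNA rows in the fetal kidney, with reads that map to several places not counted. It lies on mm10 chr1:20679010-20679082 and overlaps an exon of the long non-coding RNA Gm28653. Mir206 had 1418 reads in replicate 1 and 2043 reads in replicate 2, which is 267 CPM (exact 95% Poisson interval 253 to 281) and 287 CPM (274 to 299). The level averaged 277 ± 14.1 CPM (SD, n = 2), which ranked 125th of 1973 rows. It held 87.7% of the reads of all 9 rows in replicate 1 and 87.9% in replicate 2. All members together held 304 CPM of replicate 1 and 326 CPM of replicate 2, with a mean of 315 ± 15.5 CPM. Intervals and limits take in the error of counting alone, as PCR copies of a molecule were not told apart by identifiers. In bulk tissue, fewer cells of a type and less RNA per cell cannot be told apart.

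**Figure D1:**
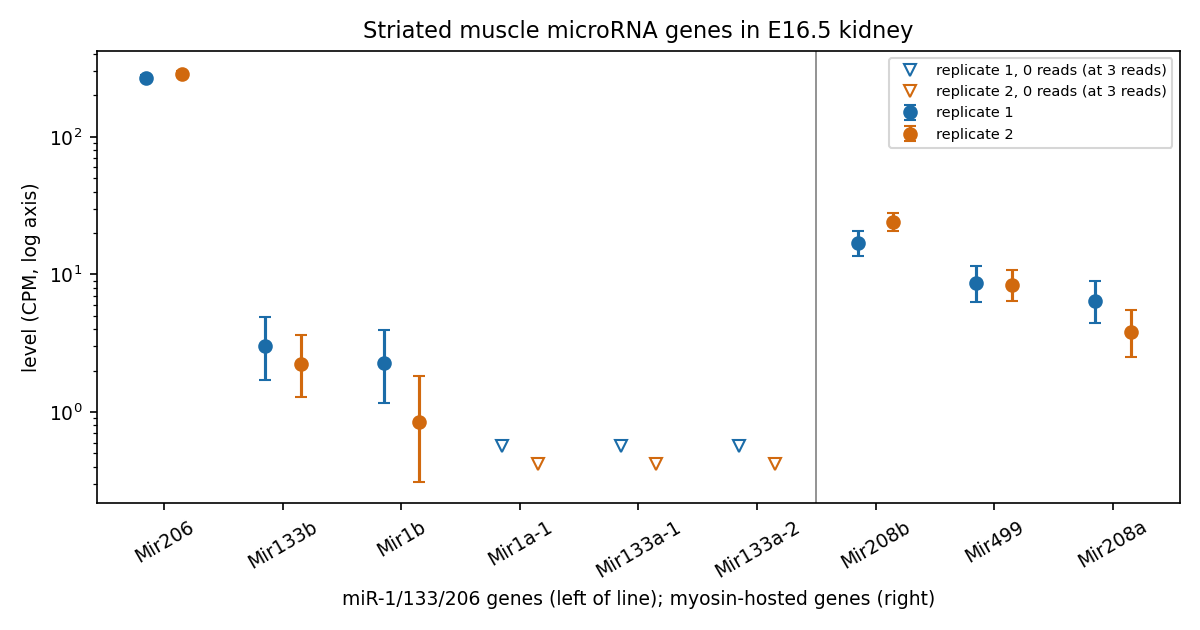
Level of each striated muscle microRNA gene with a row, in CPM on a log axis, in replicate 1 (blue) and replicate 2 (orange) of E16.5 kidney. Filled points have exact 95% Poisson intervals as bars, and open triangles mark genes with 0 reads, drawn at the level of 3 reads. Mir206 lies near 277 CPM, and every other gene lies at 24.0 CPM or less.

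The other genes of the miR-1, miR-133 and miR-206 group held few reads or none. Mir133b, which lies 3686 nt beyond Mir206 on the same strand at chr1:20682769-20682887 and overlaps an exon of Gm28653, had 16 reads in each library. This is 3.01 CPM in replicate 1 and 2.24 CPM in replicate 2, with a mean of 2.63 ± 0.541 CPM (SD, n = 2). Within a library Mir206 had 88.6 times the reads of Mir133b in replicate 1 (exact 95% interval 54.4 to 155) and 128 times in replicate 2 (78.4 to 224). The mean log2 ratio was 6.73 ± 0.37 (SD, n = 2), and 7.44 per nucleotide of precursor. An exact sign-flip permutation test over the 2 libraries, two-sided, cannot go below p = 0.5 and gave that value here and for each ratio below.

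The level of Mir133b is uncertain for a reason that its sequence shows. Of the 22 bases of miR-133b-3p, printed above, the first 21 also occur in Mir133a-1 and Mir133a-2, which make miR-133a. A read that lacks the last base therefore matches all 3 genes. Reads that map to several places stand in a row of their own in the tables and in no gene row. That row held 3323410 reads in replicate 1 and 3718198 reads in replicate 2, from all microRNA families and other RNAs together, or 2057 and 1601 times the reads of the members. How many of them came from Mir133b was not tested.

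Mir133a-1, Mir133a-2 and Mir1a-1 had 0 reads in both libraries, which allows up to 0.564 CPM in replicate 1 and 0.421 CPM in replicate 2 (3 reads). These zeros hold for the part of each precursor that is unlike its copy. Mir133a-1 on chromosome 18 and Mir133a-2 at chr2:180398379-180398482 share stretches of 24 nt and 31 nt, long enough for a whole microRNA on each side of the hairpin. Mir1a-1, which lies at chr2:180389048-180389124 and 9254 nt before Mir133a-2, shares 28 nt of its 3′ side with Mir1a-2 on chromosome 18. Its 5′ arm, printed above, lies in no other precursor, so the 0 reads of Mir1a-1 include the miR-1a-1-5p strand. For the shared 3′ side of miR-1a and for miR-133a, the tables cannot show whether the kidney contained them.

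**Figure D2:**
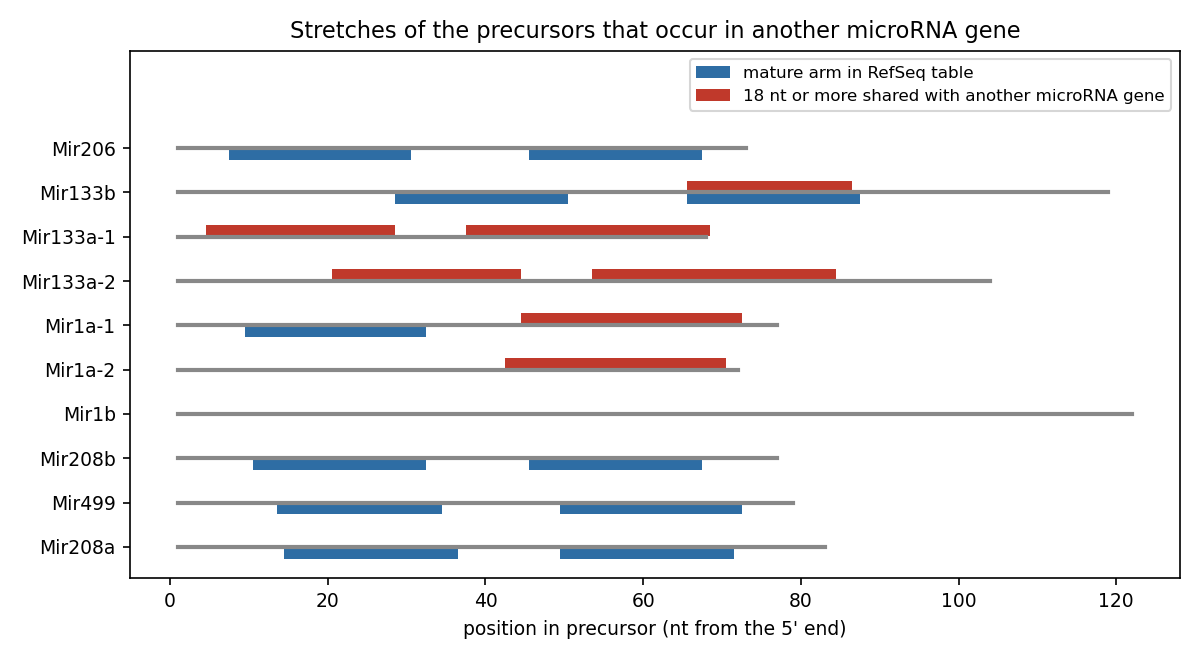
Each grey line is 1 precursor of the 10 striated muscle microRNA genes, drawn to scale in nt from its 5′ end. Red bars above the line are stretches of 18 nt or more that occur on the same strand of another microRNA gene, and blue bars below it are mature arms with a RefSeq entry. Mir133a-1 and Mir133a-2 carry stretches of 24 nt and 31 nt, Mir133b carries 21 nt under its 3′ arm, and the myosin-hosted genes and Mir206 carry none.

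Over the whole series, the share of rows with reads was set beside the duplication of their arms. Among 916 rows matched to the RefSeq table, 47 had every listed arm inside another precursor as well, and 12 of these (25.5%) had a read in either library. Of the 813 rows whose listed arms occurred in no other precursor, 545 (67.0%) had a read. Of the 56 rows with some listed arms but not all in another precursor, 49 (87.5%) had a read, the highest share of the classes. The classes may differ in more than duplication, and arms missing from the RefSeq table are not counted. Whether duplication had a part in these shares was not tested. The 6 members with an entry in that table all had listed arms that, read in full, occurred in no other precursor, and 5 of them had reads. The sixth, Mir1a-1, is listed with its 5′ arm only, and the 28 nt that it shares with Mir1a-2 are not in its class. Mir133a-1, Mir133a-2 and Mir1b have no entry and fall in no class, so these shares do not describe them. Only other microRNA genes were searched, so copies elsewhere in the genome were not counted.

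Mir1b, annotated on chromosome 18 on the strand opposite Mir1a-2, had 12 reads in replicate 1 and 6 reads in replicate 2. This is 2.26 CPM (exact 95% interval 1.17 to 3.94) and 0.842 CPM (0.309 to 1.83), with a mean of 1.55 ± 1.00 CPM (SD, n = 2). It thus passed 1 CPM in 1 library only. The Mir1b row is also the only row of the set with reads on the opposite strand, 0 in replicate 1 and 6 in replicate 2. All 55 windows of 18 nt in the Mir1a-2 precursor lie on the opposite strand of Mir1b. Reads there were not counted in any level given here.

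The myosin-hosted genes were all detected, at lower levels than Mir206. Mir208b, in an intron of Myh7 at chr14:54975700-54975776 on the minus strand, had 90 reads in replicate 1 and 171 reads in replicate 2. This is 16.9 CPM (exact 95% interval 13.6 to 20.8) and 24.0 CPM (20.5 to 27.9), with a mean of 20.5 ± 4.99 CPM (SD, n = 2). Mir499, in an intron of Myh7b at chr2:155622880-155622958 on the plus strand, had 46 reads in replicate 1 and 60 reads in replicate 2, or 8.65 CPM and 8.42 CPM, with a mean of 8.53 ± 0.165 CPM. Mir208a, in an intron of Myh6 at chr14:54949060-54949142 on the minus strand, had 34 reads in replicate 1 and 27 reads in replicate 2, or 6.39 CPM and 3.79 CPM, with a mean of 5.09 ± 1.84 CPM. No stretch of 18 nt of these 3 precursors occurred in another microRNA gene.

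By mean level the order was Mir206, Mir208b, Mir499, Mir208a, Mir133b and Mir1b. From Mir206 down to Mir133b the ranges of the libraries did not overlap between neighbours, while those of Mir133b and Mir1b did. Counting error alone blurs part of this order. Mir499 had 1.35 times the reads of Mir208a in replicate 1 (exact 95% interval 0.850 to 2.17) and 2.22 times in replicate 2 (1.39 to 3.64). Mir208a had 2.12 times the reads of Mir133b in replicate 1 (1.14 to 4.12) and 1.69 times in replicate 2 (0.877 to 3.35). Neighbours from Mir499 to Mir1b were thus apart in at most 1 of the libraries. Mir208b exceeded Mir499 in both, with 1.96 times its reads in replicate 1 (1.36 to 2.86) and 2.85 times in replicate 2 (2.11 to 3.89).

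The paralogs Mir208b and Mir208a stand 26557 nt apart on chromosome 14, in neighbouring myosin genes. Mir208b had 2.65 times the reads of Mir208a in replicate 1 (exact 95% interval 1.77 to 4.05) and 6.33 times in replicate 2 (4.204 to 9.89). These intervals do not overlap, so the size of the ratio differed between the libraries by more than read sampling, while its direction was the same. Mir208b made up 52.9% of the reads of the myosin-hosted genes in replicate 1 (45.1 to 60.6) and 66.3% in replicate 2 (60.2 to 72.0). Mir499 made up 27.1% and 23.3%, and Mir208a 20% and 10.5%. Shares of single libraries carry exact Clopper-Pearson 95% intervals.

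Summed over genes, the miR-1, miR-133 and miR-206 group stood above the myosin-hosted group. Its 6 rows held 272 CPM in replicate 1 and 290 CPM in replicate 2, against 31.97 CPM and 36.2 CPM for the 3 myosin-hosted rows. Within a library the ratio of reads was 8.51 in replicate 1 (exact 95% interval 7.25 to 10.03) and 8.004 in replicate 2 (7.03 to 9.15), a mean log2 ratio of 3.04 ± 0.06 (SD, n = 2). Per nucleotide of precursor the mean log2 ratio was 3.14. The lead rested on Mir206. Without it, the other 5 rows of the group held 28 reads against 170 reads for the myosin-hosted genes in replicate 1, and 22 against 258 in replicate 2. The mean log2 ratio was then -3.08 ± 0.67 (SD, n = 2), the other way round. Any reads of miR-1a and miR-133a that mapped to several places are in neither ratio. Mir206 alone had 15.8 times the reads of Mir208b in replicate 1 (12.7 to 19.7) and 11.9 times in replicate 2 (10.2 to 14.05), and neither gene shares 18 nt with another.

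**Figure D3:**
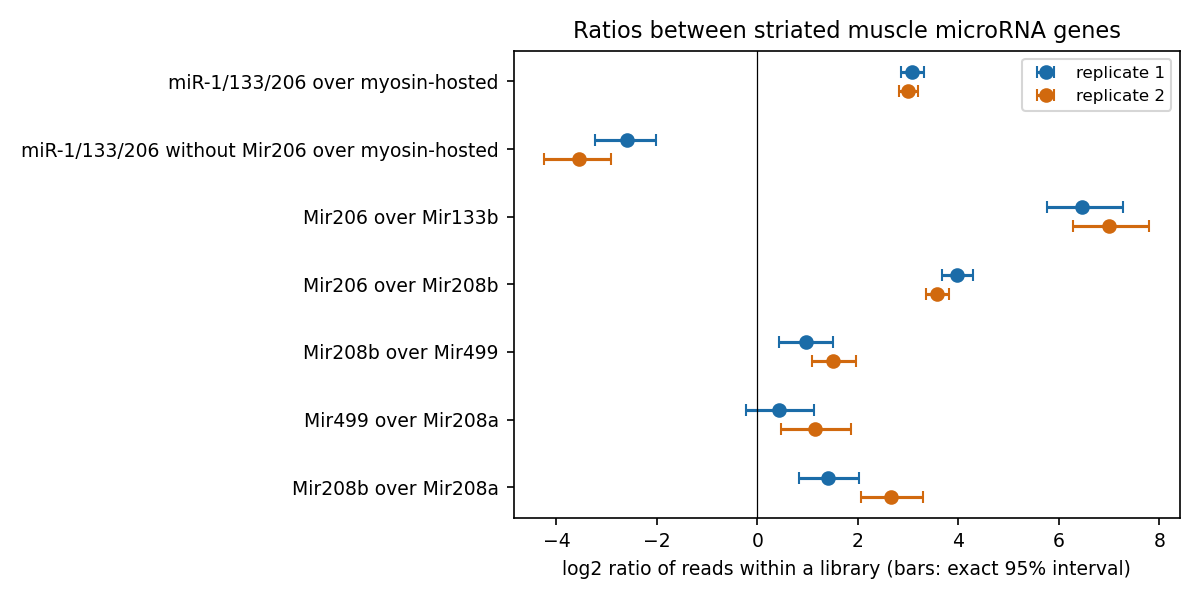
Ratios of reads between striated muscle microRNA genes within each library, on a log2 scale, for replicate 1 (blue) and replicate 2 (orange), with exact 95% intervals as bars. The miR-1, miR-133 and miR-206 group stands at 3.09 and 3.00 over the myosin-hosted group, and at -2.60 and -3.55 without Mir206.

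Of the 9 rows, 5 reached 1 CPM in both libraries, the limit used here for detection. These were Mir206, Mir133b and the 3 myosin-hosted genes. Over all 1973 rows, 19.6% were detected in this way. Of the 9 rows 6 had any read, against 36.0% of all rows. The set was chosen by name with its levels known, so these counts describe it and no more.

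The libraries were compared with edgeR's TMM scaling, which shifted log2 ratios by 0.14 from those given by library totals. On that scale the log2 ratio of replicate 2 to replicate 1 was -0.03 for Mir206, 0.37 for Mir208b, -0.17 for Mir499, -0.89 for Mir208a, -0.56 for Mir133b and -1.56 for Mir1b. With 1 library on each side there is no test of these ratios. Of the 6 members with 10 reads or more summed, 2 lay past 1.5-fold, Mir208a and Mir1b, both lower in replicate 2. Among all 455 genes with as many reads, 10.8% were lower past 1.5-fold and 21.1% lay past it in either direction, and 40.2% of the 229 genes with a mean under 30 CPM did. All members except Mir206 lie under 30 CPM.

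**Figure D4:**
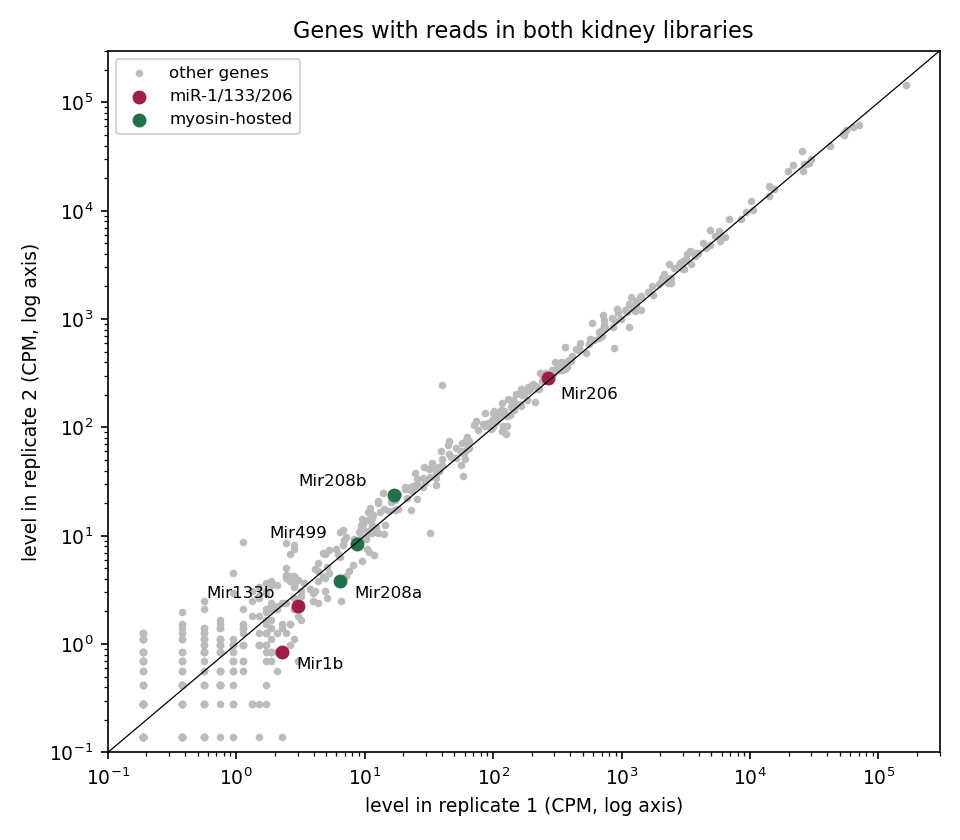
Level of every gene with reads in both libraries, in CPM on log axes, with replicate 1 across and replicate 2 up. Grey points are other genes, coloured points are members, and the line marks equal levels. Mir206 lies close to the line at 267 and 287 CPM, and Mir208a (6.39 and 3.79 CPM) and Mir1b (2.26 and 0.842 CPM) lie below it, among low genes that scatter widely.

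Other genes at the level of Mir206 give a sense of scale. The 3 genes nearest to it in both libraries were Mir433 at 269 ± 17.6 CPM, Mir669l at 287 ± 20.2 CPM and the hypoxia-induced Mir210 at 286 ± 25.96 CPM. Their largest difference from Mir206 in either library was 0.05, 0.07 and 0.09 on the log2(CPM + 1) scale. Nearest to Mir208b were Mir219a-1 at 20.3 ± 4.23 CPM, Mir34b at 21.2 ± 4.49 CPM and Mir412 at 19.3 ± 3.08 CPM, with largest differences of 0.04, 0.09 and 0.15. With 2 libraries of 1 tissue, nearness is one of level and not of a pattern across tissues.

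Beside markers of other cell types, the striated muscle genes together stood above the liver marker and below the leukocyte markers. The lists hold different numbers of genes, so their sums give only a rough scale. The striated muscle genes stood far below the markers of kidney epithelium and smooth muscle. The members summed to 304 CPM in replicate 1 and 326 CPM in replicate 2, of which Mir206 held 87.7% and 87.9%. The myosin-hosted rows alone held 31.97 CPM and 36.2 CPM, below the erythroid, leukocyte and liver markers. Any reads of miR-1a and miR-133a at several places are not in these sums. The 3 kidney epithelial genes Mir200b, Mir200c and Mir429 summed to 24733 CPM in replicate 1 and 25144 CPM in replicate 2, and are known from tubule and duct epithelium. The smooth muscle genes Mir143 and Mir145a, known from the walls of vessels and ureter, summed to 25617 CPM and 36005 CPM, or 84.3 and 110 times the members. The erythroid genes Mir451a and Mir144 summed to 303 CPM and 422 CPM, and Mir122 of liver stood at 210 CPM and 171 CPM. Of the leukocyte list 4 of 5 genes have a row, 3 were detected, and their sum was 566 CPM and 664 CPM. This sum leaves out Mir142, which has no row, and 2176 and 3442 reads on the opposite strand of Mir142b, the strand on which Mir142 is annotated. Mir375 of endocrine cells stood at 867 CPM and 537 CPM.

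A list of other microRNAs enriched in muscle but not restricted to it could be read only in part. Of its 6 genes 4 have a row, while Mir378a and Mir486b do not and were not analysed here. All 4 were detected, at a sum of 40.1 CPM in replicate 1 and 44.3 CPM in replicate 2. Mir378d led it at 17.3 ± 0.0330 CPM (SD, n = 2), before Mir378c at 11.8 ± 0.518 CPM. Mir486, which lies in Ank1 and is made by red cells as well as muscle, stood at 10.8 ± 1.65 CPM. Its row also had 4 reads in replicate 1 and 8 reads in replicate 2 on the opposite strand, which are not in this level. Any Mir486 reads at several places are not in it either. The gene rows of neuron markers held few reads. Of 5 rows of the Mir124a and Mir9 genes 1 was detected, 2 had 0 reads in both libraries, and their sum was 3.20 CPM and 1.96 CPM. The rows of each name are copies of the same microRNA, so reads at several places may be missing there too.

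Some of these lists differed between the libraries as single members did. In CPM of library totals, the smooth muscle and erythroid sums were higher in replicate 2, as was Mir208b. Mir375, Mir122 and the neuron sum were lower, as were Mir208a, Mir133b and Mir1b. A change can only be up or down, so a shared direction does not tie a list to a member. The leukocyte and wider muscle sums and Mir206 rose by less, and the kidney epithelium sum and Mir499 were nearly the same. Both Mir208 genes lie under a mean of 30 CPM, where 40.2% of 229 genes lay past 1.5-fold on the TMM scale. Whether the makeup of the pools had a part in the levels of Mir208b and Mir208a was not tested.

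**Figure D5:**
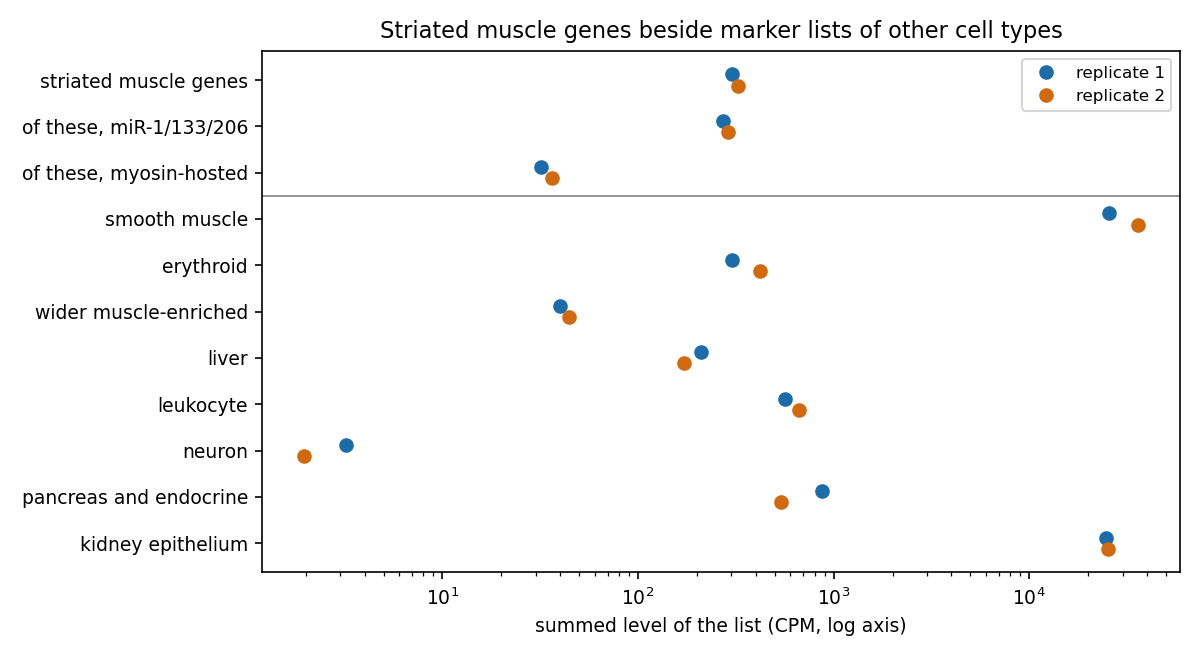
Summed level, in CPM on a log axis, of the striated muscle genes and their 2 groups (top) and of marker lists of other cell types (below the line), in replicate 1 (blue) and replicate 2 (orange). The members lie at 304 and 326 CPM, near the erythroid list, and the kidney epithelium and smooth muscle lists lie at 24733 CPM or more.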

How the data were processed

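Reads under 30 nt were sequenced from 2 kidney libraries. The values used are raw counts per microRNA gene, which the authors deposited for assembly mm10 and annotation M4, per the accompanying text files. Aligner and counting program: not given in the sources used here. In all 1973 gene rows the first count equals the sum of the other 2, taken as sense and antisense reads of the gene, and sense reads were used. Rows for unmapped reads, reads at several places and reads in no gene were left out of totals; reads at several places made up 28.0% and 25.3% of all reads in replicates 1 and 2. Symbols and positions came from GENCODE M21 (GRCm38). Of the rows 1894 matched, and the other 79 held 3 reads. All genes named were the members, fixed marker lists, and the 3 genes nearest in level to the leading gene of each group, besides genes with a shared seed. Members and lists were chosen with earlier results of these data known.

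Ratios between genes were taken within a library, with exact conditional binomial 95% intervals. A chi-square of 113 per degree of freedom showed that the libraries differed beyond read sampling. edgeR 4.0.16 and DESeq2 1.42.0 gave alternative scalings. Scaling and intervals were tested on counts simulated with Poisson error alone around set levels. That test does not cover the larger differences seen between the libraries. Python 3.11.15 and scipy 1.17.1 were used.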

Additional observations from a re-analysis of the deposited data

Results flagged for a closer look

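Reads on the strand opposite Mir1b, which no level above uses, numbered 6 in replicate 2 and 0 in replicate 1. The value of 6 lies above the 3 reads that a count of 0 allows. Mir1a-2 is annotated on that strand, and no control tissue is at hand to compare with.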

How the results depend on the processing

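The order of the 6 members with reads was the same in both libraries, and also with reads on either strand. TMM, DESeq2 size factors, a total of all reads and a total of genes with 10 reads or more kept it too. These settings scale all genes of a library alike, so they could not have changed that order. With all reads in the total, those in no gene row included, the summed level of the members was 147 CPM, against 315 CPM. At 10 CPM in both libraries 2 members were detected, against 5 at 1 CPM, while 6 had more than 3 reads in both. The ratio of the miR-1, miR-133 and miR-206 genes to the myosin-hosted genes turned round without Mir206, a choice made after the data were seen, at a log2 ratio of -3.08. Leaving out either library, adding 1 read to both sides, counting either strand or dividing by precursor length kept the direction of the 3 log2 ratios tested. Such small changes could hardly have turned ratios of this size. Counting either strand left 2 of them as they were, because Mir206, Mir133b and Mir208b had 0 reads on the opposite strand. No paired analysis was possible because the series holds 1 group. Depth limits the lowest members most: 1 read equals 0.188 CPM in replicate 1 and 0.140 CPM in replicate 2.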
